A study of Homo sapiens with 12 samples.

Results

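This account concerns 45 genes of epithelial cell junctions and epithelial identity after knockdown of MARK2 in lung cancer cells. They were chosen by name as a gene list: components of tight junctions, adherens junctions, desmosomes and the basolateral polarity module, and regulators of the epithelial state. The list was drawn up with earlier results of these data known. Of the 45 genes, 43 had a probe set assigned to a single gene and were tested among 16205 genes in all. F11R and CTNND1 were not analysed here, and all 5 probe sets of CTNND1 are shared with another gene symbol.

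The study profiled 3 human lung cancer lines chosen for high MARK2, H1993, H1693 and H1650, by Affymetrix PrimeView arrays, on which short probes in 1 or more sets read the RNA of each gene. The knockdown cells of each line carried a lentiviral short hairpin RNA against MARK2, and the control cells of the same line carried the empty pLKO vector, so that all 6 groups were transduced and the controls held no other hairpin. Each group had 2 arrays, described as biological replicates, 12 arrays in all. How many hairpins were used, and their sequences, is not given in the sources used here. Values are log2 signals as deposited, on a scale where a difference of 1 is a 2-fold difference in signal, and a change below is knockdown minus control. With bulk RNA, fewer cells that express a gene and less of its RNA in each cell cannot be told apart.

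Tight junctions seal the space between neighbouring epithelial cells with strands of claudins, occludin and the related MARVELD proteins, which are held by the scaffold proteins TJP1 and TJP3 and by cingulin. Adherens junctions below them join cells through cadherins and nectins, linked to actin by catenins and afadin, while desmosomes anchor keratin filaments through desmogleins, desmocollins, plakoglobin, plakophilins, desmoplakin and the plakins. MARK2 is a mammalian relative of the polarity kinase PAR-1; it phosphorylates microtubule-associated proteins and acts at the basolateral side of polarised epithelial cells, the territory also marked by the Scribble, DLG and LLGL proteins. Grainyhead-like, OVOL and ELF3 transcription factors and the ESRP splicing factors maintain epithelial expression, and SNAI, ZEB and TWIST factors repress parts of it.

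MARK2 signal was 6.77 ± 0.01 in H1993 knockdown arrays and 9.12 ± 0.08 in controls (log2, SD, n = 2 each), a change of -2.35 (SE 0.16, limma adjusted p = 6.47e-06). In H1693 it was 6.60 ± 0.04 after knockdown and 7.86 ± 0.15 in controls, a change of -1.27 (adjusted p = 0.000258). In H1650 the arrays labelled knockdown read 5.65 ± 0.38, against 5.94 ± 0.19 in controls, and the change of -0.29 did not pass the threshold (adjusted p = 0.156). The H1650 arrays also stood apart in RNA integrity. The difference between the 3′ and 5′ control probe sets of GAPDH, which grows as RNA is degraded because labelling starts at the 3′ end, was 6.82 ± 0.07 in H1650 knockdown arrays and 2.68 ± 0.56 in H1650 controls (log2, SD, n = 2 each). For ACTB it was 7.06 ± 0.13 in the knockdown arrays and 2.90 ± 0.54 in the controls. On the 8 arrays of H1693 and H1993 the GAPDH difference lay between -0.12 and 0.02 and the ACTB difference between 0.28 and 0.57. The H1650 changes therefore run together with a difference in RNA integrity and cannot be told apart from it; they are given separately, after the other lines. The values for H1993 and H1693 fitted without any H1650 array stand beside the counts.

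The RefSeq promoters of the genes with the largest rises in H1993 or H1693 are printed here: CGN and NECTIN4 rose most in H1993, and CLDN3 and CLDN4 rose most in H1693. Each is the 250 bases before an annotated start in GRCh38.p14. The promoters were searched on both strands for a pair of motifs: the E-box CAGGTG or CACCTG, which SNAI and ZEB repressors can bind, and AACCNGTT or AACNGGTT, the core bound by grainyhead-like factors. Capitals mark a match.
CGN: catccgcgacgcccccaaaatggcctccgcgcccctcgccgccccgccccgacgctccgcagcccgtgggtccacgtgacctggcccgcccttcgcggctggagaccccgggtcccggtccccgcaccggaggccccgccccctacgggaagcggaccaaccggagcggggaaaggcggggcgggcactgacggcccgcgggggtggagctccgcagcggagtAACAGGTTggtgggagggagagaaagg
NECTIN4: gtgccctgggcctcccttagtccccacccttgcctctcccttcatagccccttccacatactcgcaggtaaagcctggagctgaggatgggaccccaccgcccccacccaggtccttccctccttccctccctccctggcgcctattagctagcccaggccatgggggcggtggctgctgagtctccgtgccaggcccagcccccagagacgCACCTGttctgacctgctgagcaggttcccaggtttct
CLDN3: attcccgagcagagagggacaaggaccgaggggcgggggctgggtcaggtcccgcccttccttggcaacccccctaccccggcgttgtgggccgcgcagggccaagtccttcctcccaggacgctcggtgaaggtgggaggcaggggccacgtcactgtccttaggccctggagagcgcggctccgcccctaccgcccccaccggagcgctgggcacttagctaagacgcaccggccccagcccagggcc
CLDN4: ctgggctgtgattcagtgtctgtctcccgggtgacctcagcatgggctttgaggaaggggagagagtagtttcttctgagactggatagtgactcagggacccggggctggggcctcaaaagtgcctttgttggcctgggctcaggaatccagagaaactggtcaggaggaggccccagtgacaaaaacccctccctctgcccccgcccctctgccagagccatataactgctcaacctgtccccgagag
The CGN window is chr1:151511137-151511386 on the + strand and lies inside the annotated span of the gene, upstream of one of its starts. Its grainyhead-like match begins 27 bases before that start. The NECTIN4 window is chr1:161089559-161089808 on the - strand, with an E-box that begins 38 bases before the start. The CLDN3 window is chr7:73770271-73770520 on the - strand and the CLDN4 window chr7:73830746-73830995 on the + strand, and neither holds a match of either motif. Of the 43 genes, 27 matched an entry of the promoter table, with 44 promoters. The E-box was in 14 of these 44 (31.8%) and in 17.5% of all 35116 promoters of the same length. The grainyhead-like motif was in 1 of the 44, that of CGN, and in 1.49% of all promoters. These are matches of letters and not binding sites.

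In H1993 most of the 43 genes rose. After knockdown 27 rose and 1 fell (62.8% and 2.33%), with changes from -0.42 to 2.26 and a median of 0.36. Among all 16205 genes tested, 33.4% passed the threshold in H1993, 18.9% higher and 14.5% lower, with a median change of 0.02. In H1693 16 rose and 3 fell (37.2% and 6.98%), with a median of 0.19. Of all genes, 33% passed in H1693, 17.1% higher and 15.9% lower, with a median change of -0.02. When the H1650 arrays were left out of the fit, the counts were 29 higher and 1 lower in H1993 and 18 higher and 4 lower in H1693. All calls use limma's moderated test with Benjamini-Hochberg adjustment over all genes tested and a threshold of 0.05. Because the genes were chosen with earlier results of these data known, their shares beside those of all genes are no independent test.

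**Figure D1:**
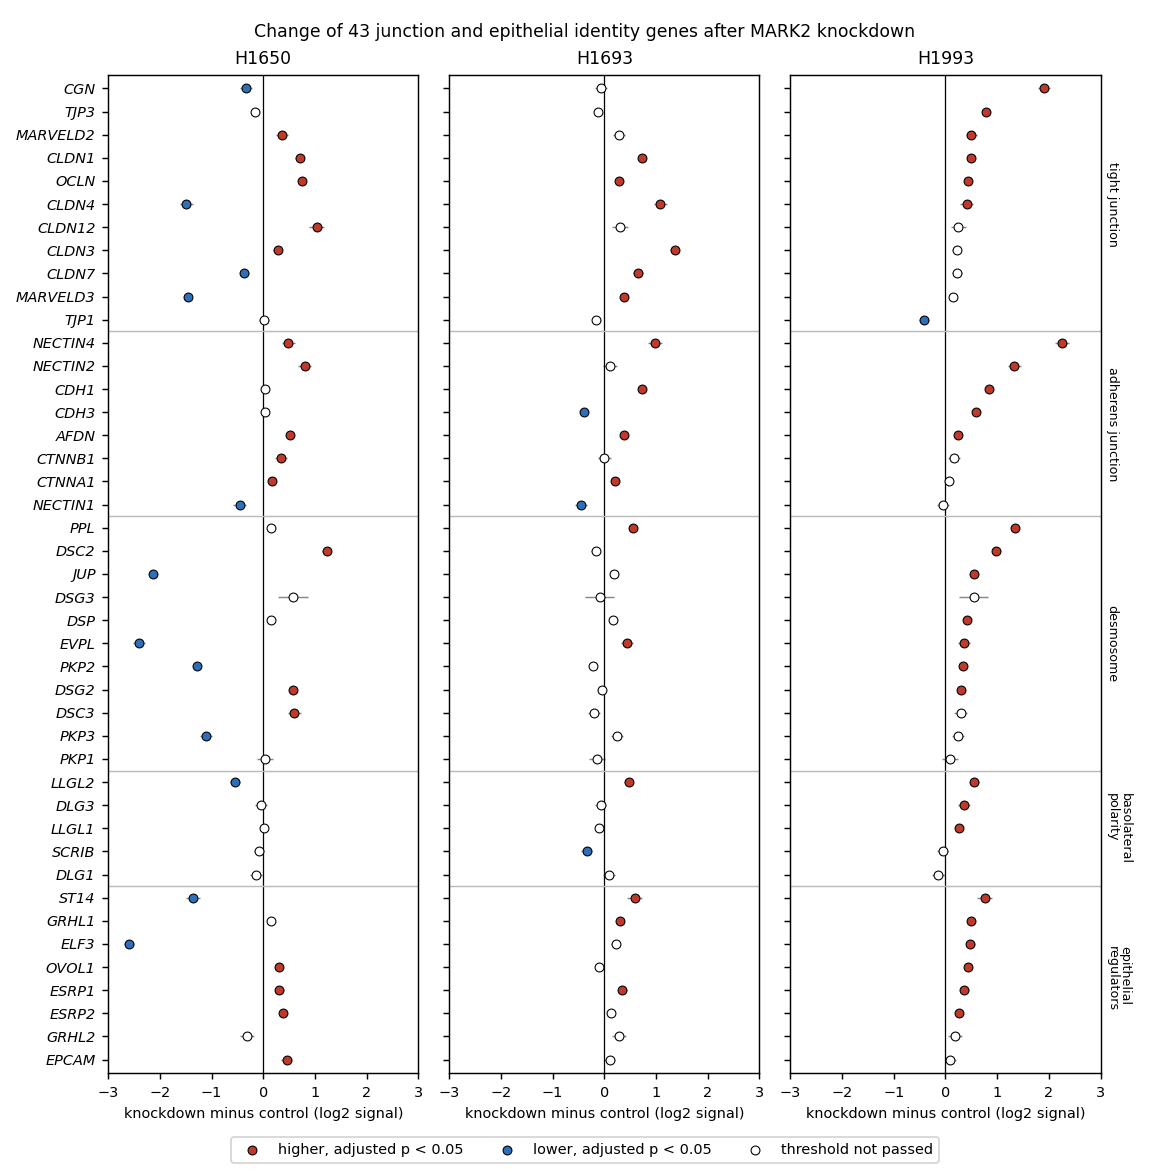
Change in log2 signal (knockdown minus control, horizontal axis) of the 43 genes in each line, ordered within each class by the change in H1993; bars are the standard error of the fit and filled points passed the threshold. In H1993 27 points are higher and 1 is lower, while in H1650 17 are higher and 12 are lower.

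The plot of shares by class gives the same counts for each kind of gene. In H1993 7 of 11 desmosomal genes, 6 of 8 epithelial regulators, 5 of 8 adherens junction genes, 6 of 11 tight junction genes and 3 of 5 polarity genes rose. In H1693 6 of 11 tight junction genes rose, 4 of 8 adherens junction genes and 3 of 8 regulators, against 2 of 11 desmosomal genes and 1 of 5 polarity genes. No test compared one class with another.

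**Figure D2:**
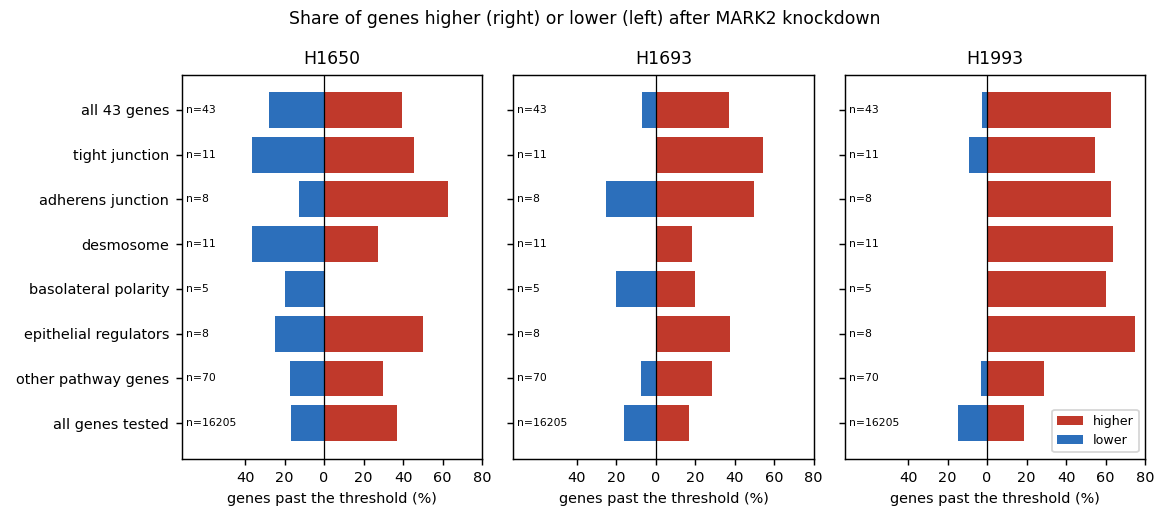
Share of genes (%, horizontal axis) that passed the threshold as higher (red, right) or lower (blue, left) after knockdown in each line, for the 43 genes together, for each class, for 70 other genes of the same pathways and for all 16205 genes tested; n is the number of genes tested. In H1993 the red bar is 62.8% for the 43 genes and 18.9% for all genes.

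Among tight junction genes, CGN had the largest change in H1993. Cingulin, its product, is a cytoplasmic plaque protein that links the junction to actin and to microtubules. CGN signal was 10.55 and 10.53 in H1993 knockdown arrays, against 8.47 and 8.81 in H1993 controls. In H1693 it was 10.82 and 10.92 after knockdown, against 10.92 and 10.94 in controls. The H1993 knockdown arrays were far above their controls, while the H1693 arrays of both groups lay close together. The change was 1.90 in H1993 (SE 0.12, adjusted p = 3.45e-06), a 3.73-fold rise, and -0.06 in H1693 (adjusted p = 0.745). All 3 CGN probe sets were higher in H1993, by 1.498 to 1.901. TJP3, a scaffold protein that binds claudins, read 8.11 and 8.20 in H1993 knockdown arrays, against 7.39 and 7.35 in H1993 controls, and 6.64 and 6.71 in H1693 knockdown arrays, against 6.83 and 6.75 in H1693 controls. It rose by 0.79 in H1993 (adjusted p = 3.42e-05) and changed by -0.12 in H1693 (adjusted p = 0.258). TJP1, the best known scaffold of the junction, was the single gene of the 43 that fell in H1993, by 0.42 on the log2 scale (adjusted p = 0.00581). Without H1993 knockdown replicate 2 its change was -0.32, just outside the threshold (adjusted p = 0.0503).

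The claudins form the strands themselves, and CLDN3, CLDN4 and CLDN7 had larger changes in H1693 than in H1993. CLDN3 and CLDN4 are neighbours on chromosome 7, 60.7 kb apart, and both encode receptors for a clostridial enterotoxin. CLDN3 signal was 11.67 and 11.76 in H1693 knockdown arrays, against 10.34 and 10.37 in H1693 controls. In H1993 it was 7.69 and 7.70 after knockdown, against 7.53 and 7.42 in controls. The groups did not overlap in either line, but the gap was wide in H1693 alone. CLDN3 rose by 1.36 in H1693 (SE 0.08, adjusted p = 4.72e-06), 2.56-fold, and its change of 0.22 in H1993 did not pass (adjusted p = 0.0766). CLDN4 read 12.68 and 12.69 in H1693 knockdown arrays, against 11.53 and 11.68 in H1693 controls, and 13.04 and 13.05 in H1993 knockdown arrays, against 12.68 and 12.59 in H1993 controls. Its rises were 1.08 in H1693 (adjusted p = 0.000167) and 0.41 in H1993 (adjusted p = 0.0302). The H1993 call was lost without any one of the 4 H1993 arrays, with adjusted p between 0.0704 and 0.138.

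CLDN7, also found along the lateral membrane of epithelial cells, read 12.20 and 12.31 in H1693 knockdown arrays, against 11.55 and 11.67 in H1693 controls, and 11.90 and 11.95 in H1993 knockdown arrays, against 11.68 and 11.74 in H1993 controls. Here too every knockdown array was above its controls. It rose by 0.64 in H1693 (adjusted p = 0.000698), and in H1993 the change of 0.22 did not pass (adjusted p = 0.119). CLDN1, a barrier-forming claudin, was 12.77 and 12.71 in H1993 knockdown arrays, against 12.25 and 12.24 in H1993 controls. In H1693 it was 12.22 and 12.29 after knockdown, against 11.55 and 11.50 in controls. It was raised in both lines, by 0.49 (adjusted p = 0.0015) in H1993 and 0.73 (adjusted p = 0.000163) in H1693, and all 4 of its probe sets were higher in each of them. CLDN12 lacks the PDZ-binding tail of most claudins. It read 11.40 and 11.05 in H1993 knockdown arrays, against 11.06 and 10.88 in H1993 controls, where the groups overlapped, and 10.11 and 10.31 in H1693 knockdown arrays, against 9.996 and 9.81 in H1693 controls, and passed in neither.

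OCLN and MARVELD2 of the MARVEL-domain proteins rose in H1993, and OCLN and MARVELD3 in H1693. Occludin, OCLN, was 9.08 and 9.01 in H1993 knockdown arrays, against 8.60 and 8.60 in H1993 controls, and 10.93 and 11.09 in H1693 knockdown arrays, against 10.75 and 10.71 in H1693 controls. It rose by 0.44 in H1993 (SE 0.07, adjusted p = 0.00108) and 0.28 in H1693 (adjusted p = 0.0141), the call in H1693 being lost without knockdown replicate 2 or control replicate 2 of that line (adjusted p up to 0.124). MARVELD2, tricellulin, which seals the points where 3 cells meet, read 9.71 and 9.57 in H1993 knockdown arrays, against 9.16 and 9.12 in H1993 controls, and 9.81 and 10.03 in H1693 knockdown arrays, against 9.68 and 9.59 in H1693 controls. Its rise of 0.50 in H1993 passed (adjusted p = 0.00696), though not without knockdown replicate 1 (adjusted p = 0.0539), and 0.28 in H1693 did not (adjusted p = 0.0873). MARVELD3 read 8.55 and 8.49 in H1993 knockdown arrays, against 8.41 and 8.34 in H1993 controls, and 9.54 and 9.53 in H1693 knockdown arrays, against 9.15 and 9.19 in H1693 controls. It rose in H1693, by 0.37 (adjusted p = 0.00279), and its H1993 change was 0.15 (adjusted p = 0.137). All 3 MARVELD3 probe sets were higher in both lines, by 0.15 to 0.70 in H1993 and 0.37 to 0.57 in H1693. The probe set used gave the lowest value in each, so the contrast between the lines rests on it.

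**Figure D3:**
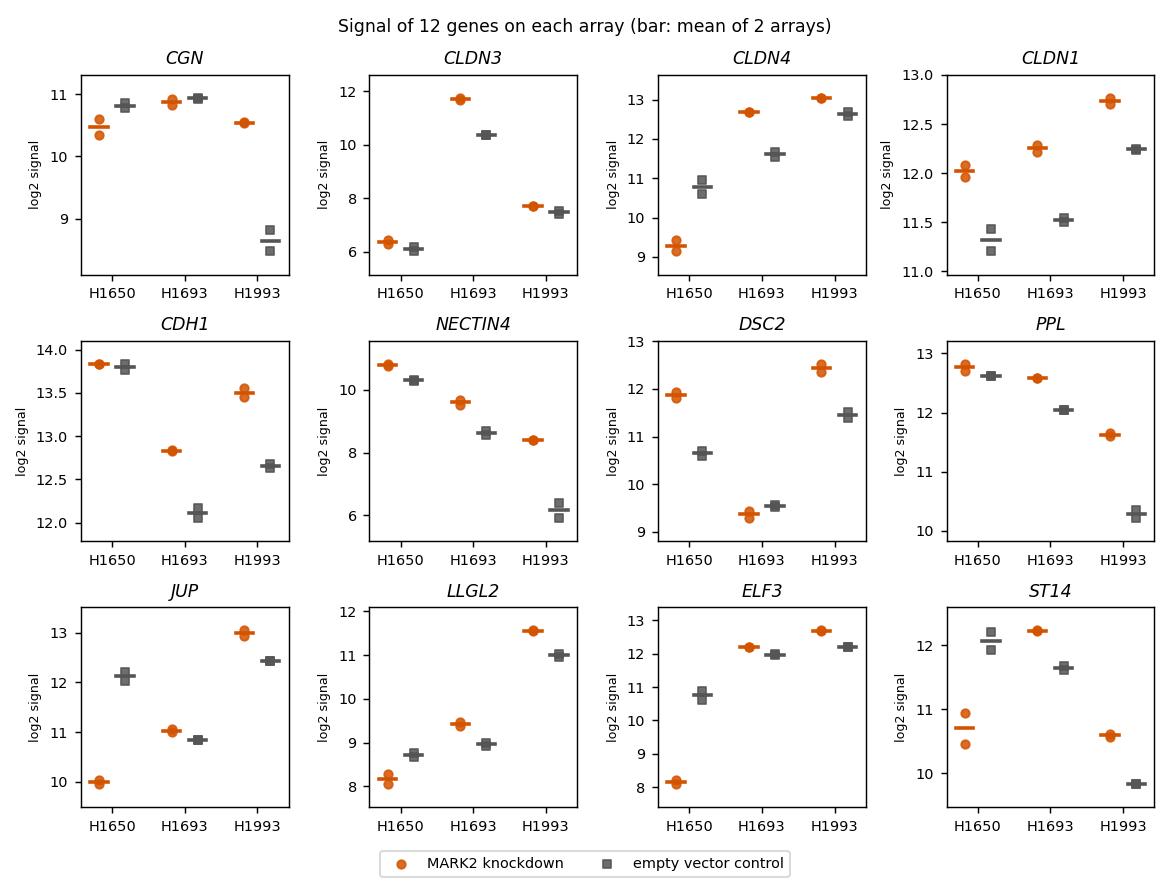
Log2 signal (vertical axis) of 12 genes on each array, with knockdown arrays as orange circles left of control arrays as grey squares in each line and a bar at the mean of 2 arrays; vertical axes differ between genes and do not start at 0. CGN and NECTIN4 show their widest gap in H1993, CLDN3 shows its in H1693, and JUP and ELF3 are lower after knockdown in H1650 and higher in H1993.

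Among adherens junction genes, E-cadherin rose in both lines. CDH1 encodes E-cadherin, the adhesion molecule that defines epithelial cells. Its signal was 13.56 and 13.45 in H1993 knockdown arrays, against 12.68 and 12.63 in H1993 controls, and 12.84 and 12.82 in H1693 knockdown arrays, against 12.16 and 12.05 in H1693 controls. No knockdown array reached down to a control in either line. The changes were 0.85 in H1993 (SE 0.07, adjusted p = 1.67e-05), 1.80-fold, and 0.72 in H1693 (adjusted p = 4.64e-05), 1.65-fold. CDH3, P-cadherin, lies beside it on chromosome 16, 3.52 kb away. CDH3 read 12.10 and 12.06 in H1993 knockdown arrays, against 11.48 and 11.50 in H1993 controls, and 9.61 and 9.53 in H1693 knockdown arrays, against 10.01 and 9.93 in H1693 controls. The cadherin neighbours thus moved together in H1993 and apart in H1693: CDH3 rose by 0.59 in H1993 (adjusted p = 0.000125) and fell by 0.40 on the log2 scale in H1693 (adjusted p = 0.00142). Both CDH3 probe sets had these signs. It was the only gene of the 43 that passed in opposite directions in H1993 and H1693.

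Nectins are immunoglobulin-like adhesion molecules that help to start the adherens junction. NECTIN4, the target of an antibody-drug conjugate used in urothelial cancer, had the largest rise of all 43 genes. Its signal was 8.40 and 8.42 in H1993 knockdown arrays, against 5.91 and 6.39 in H1993 controls. In H1693 it was 9.53 and 9.68 after knockdown, against 8.70 and 8.54 in controls. Knockdown arrays were well above controls in both. The changes were 2.26 in H1993 (SE 0.13, adjusted p = 2.92e-06) and 0.98 in H1693 (adjusted p = 0.000407). All 3 NECTIN4 probe sets were higher in both lines, but in H1993 they ranged from 0.32 to 2.26, and the probe set used gave the highest value, with a change of 1.07 when they were averaged. NECTIN2 read 8.22 and 8.24 in H1993 knockdown arrays, against 6.97 and 6.82 in H1993 controls, and 10.18 and 10.14 in H1693 knockdown arrays, against 10.14 and 9.96 in H1693 controls. It rose by 1.34 in H1993 (adjusted p = 4.53e-05), whereas the H1693 groups overlapped and its change was 0.11 (adjusted p = 0.594). NECTIN1 went the other way in H1693, where it fell by 0.45 on the log2 scale (adjusted p = 0.015); the call was lost without either H1693 knockdown array or control replicate 2 (adjusted p up to 0.102). In H1993 its change was -0.04 (adjusted p = 0.851).

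The cytoplasmic partners had smaller changes. AFDN encodes afadin, which ties nectins to actin. It read 10.24 and 10.35 in H1993 knockdown arrays, against 10.04 and 10.06 in H1993 controls, and 10.47 and 10.53 in H1693 knockdown arrays, against 10.15 and 10.10 in H1693 controls. It rose by 0.24 in H1993 (adjusted p = 0.02) and 0.38 in H1693 (adjusted p = 0.00214). The H1993 rise rests on the probe set used: 2 of its 7 probe sets shared the sign, with a range of -0.28 to 0.24. In H1693 5 of the 7 shared the sign, with a range of -0.35 to 0.38, and their averaged change of 0.13 did not pass. The H1993 call was also lost without knockdown replicate 2 or either control array (adjusted p up to 0.134). CTNNB1, beta-catenin, passed in neither line, with changes of 0.16 in H1993 and 0.00 in H1693. All 8 CTNNB1 probe sets were higher in both lines, by 0.08 to 0.50 in H1993 and 0.002 to 0.45 in H1693. The probe set used gave the lowest value in H1693. CTNNA1, alpha-catenin, changed by 0.07 in H1993 and rose by 0.20 in H1693 (adjusted p = 0.0251), a call lost without any one of the 4 H1693 arrays (adjusted p up to 0.142).

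Of 11 desmosomal genes, 7 rose in H1993 (63.6%, against 18.9% of all genes) and 2 in H1693 (18.2%, near the 17.1% of all genes). PPL encodes periplakin, a plakin that connects the desmosomal plaque to keratin. It read 11.65 and 11.60 in H1993 knockdown arrays, against 10.22 and 10.35 in H1993 controls. In H1693 it was 12.59 and 12.59 after knockdown, against 12.04 and 12.05 in controls. It rose by 1.34 in H1993 (SE 0.07, adjusted p = 1.41e-06), 2.54-fold, and by 0.55 in H1693 (adjusted p = 0.000259), and its 4 probe sets were all higher in both lines. EVPL, envoplakin, forms dimers with periplakin. Its signal was 9.02 and 9.08 in H1993 knockdown arrays, against 8.62 and 8.75 in H1993 controls, and 8.22 and 8.06 in H1693 knockdown arrays, against 7.65 and 7.75 in H1693 controls. It rose by 0.36 in H1993 (adjusted p = 0.032) and 0.44 in H1693 (adjusted p = 0.0126), and the first call was lost without any one of the 4 H1993 arrays (adjusted p up to 0.167) and the second without knockdown replicate 1 or control replicate 1 of H1693 (adjusted p up to 0.0925).

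The desmosomal cadherins lie in a cluster on chromosome 18. DSC2, desmocollin 2, read 12.52 and 12.36 in H1993 knockdown arrays, against 11.39 and 11.53 in H1993 controls, and 9.29 and 9.44 in H1693 knockdown arrays, against 9.51 and 9.56 in H1693 controls. It was clearly higher in H1993 and slightly lower on both H1693 knockdown arrays. The rise in H1993 was 0.98 (SE 0.09, adjusted p = 3.27e-05), and the H1693 change of -0.17 did not pass (adjusted p = 0.19). All 6 DSC2 probe sets had these signs in each line. DSG2, desmoglein 2, read 13.91 and 13.82 in H1993 knockdown arrays, against 13.61 and 13.52 in H1993 controls, and 12.50 and 12.57 in H1693 knockdown arrays, against 12.60 and 12.59 in H1693 controls. Its change was 0.30 in H1993 (adjusted p = 0.0121), lost without knockdown replicate 1 or control replicate 2 (adjusted p up to 0.0833), and -0.06 in H1693. DSC3 read 5.78 and 5.73 in H1993 knockdown arrays, against 5.57 and 5.35 in H1993 controls, and 5.32 and 4.94 in H1693 knockdown arrays, against 5.30 and 5.36 in H1693 controls, near the lowest signal used for filtering, and passed in neither. DSG3 passed in no line, with changes of 0.55 in H1993 and -0.09 in H1693 and the widest standard error of the 43 genes (0.28). That error is pooled over the 6 groups. The DSG3 SD was 0.68 and 0.51 in H1693 knockdown and control arrays, and 0.02 and 0.03 in those of H1993. In H1993 DSG3 read 9.62 and 9.59 after knockdown, against 9.04 and 9.08 in controls, without overlap.

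In the desmosomal plaque, JUP encodes plakoglobin, which also serves adherens junctions. Its signal was 12.93 and 13.05 in H1993 knockdown arrays, against 12.44 and 12.43 in H1993 controls, and 11.06 and 10.999 in H1693 knockdown arrays, against 10.85 and 10.84 in H1693 controls. The rise of 0.56 in H1993 passed (adjusted p = 0.000535), and 0.19 in H1693 did not (adjusted p = 0.109). PKP2, plakophilin 2, read 9.98 and 10.03 in H1993 knockdown arrays, against 9.64 and 9.69 in H1993 controls, and 9.89 and 9.98 in H1693 knockdown arrays, against 10.17 and 10.13 in H1693 controls. It was raised by 0.33 in H1993 (adjusted p = 0.0072) and changed by -0.21 in H1693 (adjusted p = 0.0565). PKP3 read 12.17 and 12.03 in H1993 knockdown arrays, against 11.68 and 12.03 in H1993 controls, and 9.18 and 9.16 in H1693 knockdown arrays, against 8.93 and 8.93 in H1693 controls, and passed in neither, with changes of 0.25 and 0.24. Desmoplakin, DSP, which binds keratin directly, rose by 0.41 in H1993 (adjusted p = 0.00126) and changed by 0.16 in H1693 (adjusted p = 0.105). PKP1 passed in no line.

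Of 5 basolateral polarity genes, 3 rose in H1993 (60%, against 18.9% of all genes), and in H1693 1 rose and 1 fell (20% each, near the 17.1% and 15.9% of all genes). LLGL2, a homologue of the Drosophila tumour suppressor lethal giant larvae, read 11.55 and 11.56 in H1993 knockdown arrays, against 10.96 and 11.03 in H1993 controls, and 9.48 and 9.38 in H1693 knockdown arrays, against 8.99 and 8.93 in H1693 controls. Both lines showed a clear gap. It rose by 0.56 in H1993 (SE 0.09, adjusted p = 0.000913) and 0.47 in H1693 (adjusted p = 0.00266). Its relative LLGL1 rose by 0.26 in H1993 (adjusted p = 0.0147), lost without knockdown replicate 1 or either control array (adjusted p up to 0.0865), and DLG3, a membrane-associated guanylate kinase scaffold, by 0.36 (adjusted p = 0.0311), lost without either knockdown array or control replicate 1 (adjusted p up to 0.183). SCRIB, the Scribble scaffold, fell by 0.34 on the log2 scale in H1693 (adjusted p = 0.024), a call lost without knockdown replicate 1 or control replicate 1 (adjusted p up to 0.165). DLG1 passed in no line.

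Of the regulators, the transmembrane protease ST14, matriptase, changed most in both lines. It read 10.61 and 10.57 in H1993 knockdown arrays, against 9.83 and 9.84 in H1993 controls, and 12.22 and 12.23 in H1693 knockdown arrays, against 11.67 and 11.61 in H1693 controls. The rises were 0.76 in H1993 (SE 0.14, adjusted p = 0.0023) and 0.59 in H1693 (adjusted p = 0.00956), the second lost without knockdown replicate 2 or control replicate 2 of H1693 (adjusted p up to 0.0581). ELF3, an epithelial ETS factor, read 12.67 and 12.69 in H1993 knockdown arrays, against 12.20 and 12.19 in H1993 controls, and 12.19 and 12.19 in H1693 knockdown arrays, against 11.96 and 11.98 in H1693 controls. It rose by 0.48 in H1993 (adjusted p = 0.00201), and all 3 probe sets were higher there. In H1693 its change was 0.22 (adjusted p = 0.0792).

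Of the grainyhead-like factors, GRHL1 rose by 0.49 in H1993 (adjusted p = 0.00112) and 0.31 in H1693 (adjusted p = 0.0154), the second call lost without knockdown replicate 2 or control replicate 2 (adjusted p up to 0.123), while GRHL2 passed in no line. OVOL1, a repressor of mesenchymal genes, rose by 0.43 in H1993 (adjusted p = 0.00176), but 1 of its 3 probe sets, the one used, had this sign. The splicing factor ESRP1 rose by 0.36 in H1993 (adjusted p = 0.00931) and 0.34 in H1693 (adjusted p = 0.0126). Without 1 array of the line, knockdown replicate 1 or control replicate 2 in H1993 and either knockdown array or control replicate 2 in H1693, these calls were lost (adjusted p up to 0.0776 and 0.110). ESRP2 rose by 0.27 in H1993 (adjusted p = 0.0209), lost without knockdown replicate 1 or control replicate 1 (adjusted p up to 0.151). EPCAM, the epithelial cell adhesion molecule, changed by 0.09 in H1993 and 0.10 in H1693 and passed in neither.

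The change in H1993 and the change in H1693 were compared directly for each gene, as the difference of the 2 changes in the same fit. Over all genes 22.1% passed, 12.6% with a higher change in H1993 and 9.48% with a lower one. Of the 43 genes, 15 passed: 12 had a higher change in H1993 and 3 a lower one (27.9% and 6.98%). The largest difference was that of CGN, 1.96 (SE 0.16, adjusted p = 5.75e-05). NECTIN4, NECTIN2 and DSC2 followed at 1.27, 1.23 and 1.15 (adjusted p of 0.00135, 0.00132 and 0.000253). CDH3, TJP3 and PPL differed by 0.99, 0.90 and 0.80 (adjusted p of 0.000121, 0.000294 and 0.000481), and PKP2 and OVOL1 by 0.55 and 0.53 (adjusted p of 0.00575 and 0.00668). JUP, DSG2 and LLGL1 differed by 0.37, 0.36 and 0.36, with adjusted p of 0.044, 0.0403 and 0.0264. With probe sets averaged, the differences of NECTIN4 (0.30), PPL (0.38), OVOL1 (0.21), DSG2 (0.35) and LLGL1 (0.17) did not pass (adjusted p between 0.0989 and 0.285). All 3 genes with a lower change in H1993 were claudins: CLDN3 (-1.14, adjusted p = 0.000191), CLDN4 (-0.67, adjusted p = 0.0253) and CLDN7 (-0.43, adjusted p = 0.04997). Desmosomal genes gave 5 of the 12 differences in the other direction.

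**Figure D4:**
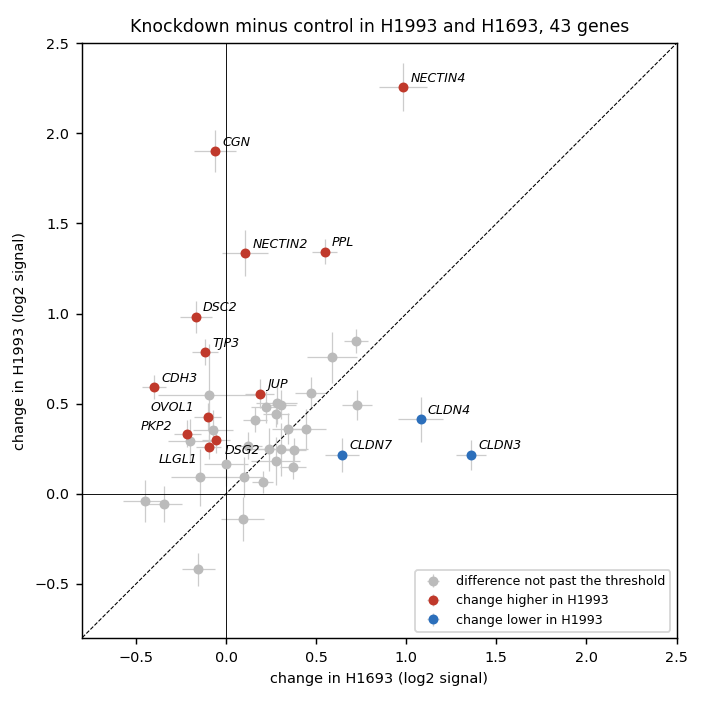
Change in log2 signal after knockdown in H1993 (vertical axis) against the change in H1693 (horizontal axis) for the 43 genes; bars are standard errors, the dashed line marks equal changes, and coloured points passed the test of the difference. 12 named points lie above the line in red, CGN farthest, and 3 claudins lie below it in blue.

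Leaving out 1 array ended 5 of these 15 calls. The CLDN4 difference was lost without any one of 6 arrays, those of H1693 and H1993 other than their control replicates 2 (adjusted p up to 0.0922), and CLDN7 and DSG2 without any one of the 8 arrays of both lines (adjusted p up to 0.159 and 0.127). JUP was lost without any of these 8 except H1993 knockdown replicate 1 (adjusted p up to 0.137), and LLGL1 without any except H1993 knockdown replicate 2 (adjusted p up to 0.0919). For CDH1, the difference of 0.13 did not pass (adjusted p = 0.415), nor did those of LLGL2 (0.09), ST14 (0.17), CLDN1 (-0.23) and OCLN (0.17).

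In H1650 the 43 genes were split. Of them, 17 were higher and 12 lower on the arrays labelled knockdown (39.5% and 27.9%), with changes from -2.60 to 1.23 and a median of 0.03. Over all genes 53.4% passed in H1650, 36.7% higher and 16.7% lower, with a median change of 0.15, so the share that was higher was close to that of all genes. After quantile normalization of the tested genes the split was 11 higher and 13 lower, and after median centring 14 and 13. All of these values run with the GAPDH difference between 3′ and 5′ probes of 6.82 ± 0.07 in knockdown and 2.68 ± 0.56 in control arrays, whose part in them was not tested. Of 37 genes with several probe sets, all probe sets shared a sign for 12 in H1650, against 26 in H1693 and 25 in H1993, and the median range between probe sets of a gene was 1.00 in H1650, against 0.21 and 0.22 in those lines.

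**Figure D5:**
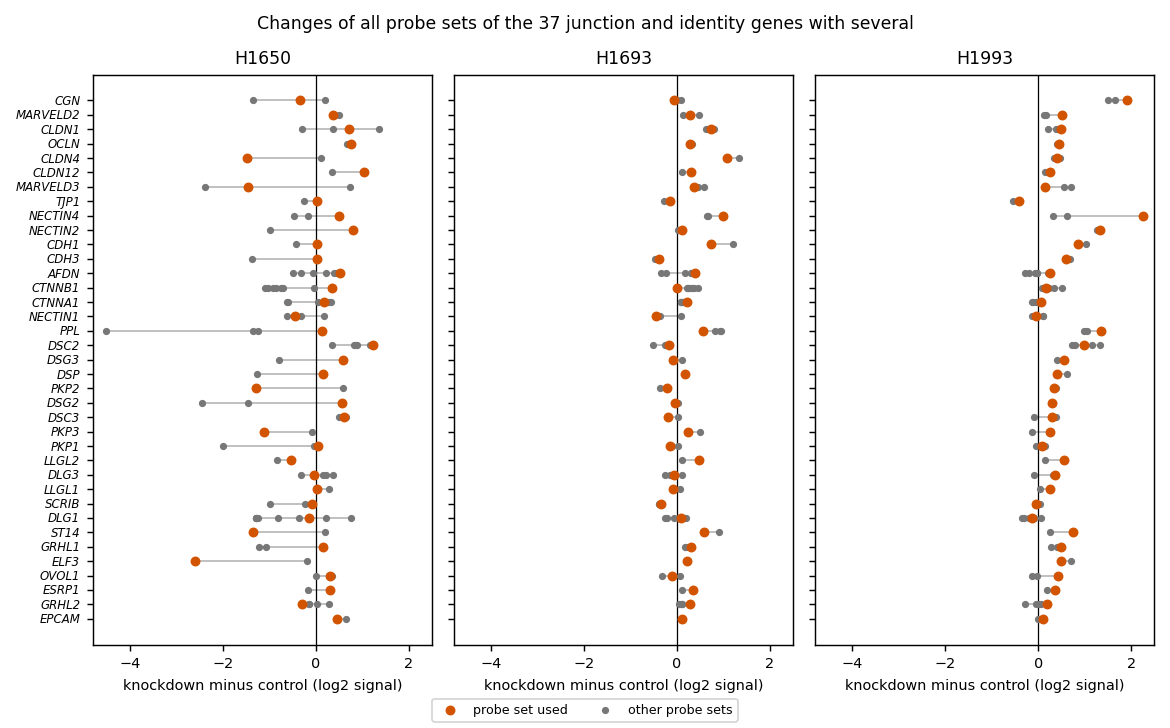
Change in log2 signal (horizontal axis) of every probe set of the 37 genes with several, in each line, with the probe set used in orange and the others in grey. The probe sets of a gene spread widely in H1650, for PPL from -4.52 to 0.14, and less in H1693 and H1993.

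Among tight junction genes in H1650, CLDN4 read 9.44 and 9.13 after knockdown, against 10.96 and 10.60 in controls. MARVELD3 read 8.83 and 8.96 after knockdown, against 10.31 and 10.40 in controls. Both were lower on every knockdown array: CLDN4 fell by 1.49 (adjusted p = 9.61e-06) and MARVELD3 fell by 1.46 (adjusted p = 4.32e-07), although the other MARVELD3 probe sets ran from -2.39 to 0.74 and those of CLDN4 up to 0.11. CLDN12 was 10.16 and 9.99 after knockdown, against 8.88 and 9.21 in controls. It rose by 1.03 (adjusted p = 0.000268), and its other probe set was higher by 0.35. OCLN, at 10.67 and 10.61 after knockdown, against 9.85 and 9.92 in controls, and CLDN1, at 12.08 and 11.96 after knockdown, against 11.20 and 11.43 in controls, rose by 0.75 and 0.70 (adjusted p of 2.18e-05 and 8.67e-05). CGN read 10.35 and 10.60 after knockdown, against 10.85 and 10.77 in controls, and CLDN7 9.32 and 9.48 after knockdown, against 9.89 and 9.64 in controls, changes of -0.34 and -0.36 that passed (adjusted p of 0.0322 and 0.00932) but not without knockdown replicate 1 or control replicate 1, nor, for CGN, without control replicate 2 (adjusted p up to 0.210 and 0.0776). CLDN3 read 6.45 and 6.28 after knockdown, against 6.17 and 6.004 in controls, and MARVELD2 10.68 and 10.60 after knockdown, against 10.12 and 10.44 in controls. Their rises of 0.28 and 0.37 were lost without knockdown replicate 1, CLDN3 also without control replicate 2 and MARVELD2 also without control replicate 1 (adjusted p up to 0.131 and 0.164). TJP3, at 6.77 and 6.90 after knockdown, against 7.0004 and 7.004 in controls, did not pass (adjusted p = 0.0757). Probe sets disagreed in sign in H1650 for CLDN1, from -0.31 to 1.37, and for CGN, from -1.36 to 0.18.

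Of the H1650 adherens junction genes, E-cadherin and P-cadherin did not change past the threshold: CDH1 read 13.83 and 13.84 after knockdown, against 13.77 and 13.83 in controls, and CDH3 13.56 and 13.64 after knockdown, against 13.61 and 13.53 in controls. The groups overlapped for both on the probe sets used, while the other probe set changed by -0.43 for CDH1 and by -1.39 for CDH3. NECTIN2 read 10.93 and 11.21 after knockdown, against 10.10 and 10.44 in controls, NECTIN4 10.75 and 10.83 after knockdown, against 10.29 and 10.31 in controls, and AFDN 11.85 and 11.78 after knockdown, against 11.26 and 11.34 in controls. Each was higher on both knockdown arrays, by 0.80, 0.49 and 0.52 (adjusted p of 0.000543, 0.0115 and 0.000154). For NECTIN2, NECTIN4, CTNNB1, CTNNA1 and DSG2 these H1650 rises turned into a mean change below 0 when the probe sets of the gene were averaged. NECTIN4 also lost its call without knockdown replicate 2 (adjusted p = 0.0561). CTNNB1 and CTNNA1 were higher by 0.34 and 0.16 (adjusted p of 0.0383 and 0.0414), calls lost without any one of 8 and 11 of the 12 arrays. NECTIN1 fell by 0.46 on the log2 scale (adjusted p = 0.00837), lost without knockdown replicate 1 (adjusted p = 0.0540).

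Of the junction genes, EVPL and JUP of the desmosome had the largest falls in H1650. EVPL read 6.63 and 6.97 after knockdown, against 9.26 and 9.15 in controls, and it fell by 2.41 on the log2 scale (adjusted p = 3.51e-07). JUP read 9.95 and 10.03 after knockdown, against 12.22 and 12.02 in controls, and it fell by 2.13 (adjusted p = 1.56e-07). Each of these genes has a single probe set, and their knockdown arrays were far below the controls. PKP2 read 8.28 and 8.30 after knockdown, against 9.66 and 9.48 in controls, and PKP3 7.40 and 7.29 after knockdown, against 8.58 and 8.34 in controls. They fell by 1.28 and by 1.11 (adjusted p of 1.20e-06 and 4.32e-05), while the other PKP2 probe set was higher by 0.58. Of 4 desmosomal cadherins, 3 rose and DSG3 did not pass (adjusted p = 0.116), in a line where 36.7% of all genes were higher. DSC2 read 11.93 and 11.81 after knockdown, against 10.59 and 10.70 in controls, DSG2 13.19 and 13.11 after knockdown, against 12.51 and 12.66 in controls, and DSC3 7.24 and 7.39 after knockdown, against 6.74 and 6.67 in controls. Their rises were 1.23, 0.57 and 0.60 (adjusted p of 3.78e-06, 0.000161 and 0.00229). All 6 DSC2 probe sets were higher, by 0.34 to 1.23, whereas the DSG2 probe sets ran from -2.46 to 0.57 and averaged to a change of -1.12. PPL read 12.82 and 12.71 after knockdown, against 12.63 and 12.62 in controls, a change of 0.14 that did not pass (adjusted p = 0.118). Its 4 probe sets ran from -4.52 to 0.14, and only the one used was above 0.

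The polarity and regulator genes of H1650 included the largest change of the list. ELF3 read 8.09 and 8.22 after knockdown, against 10.88 and 10.62 in controls, and it fell by 2.60 on the log2 scale (adjusted p = 1.04e-07), with its 3 probe sets between -2.60 and -0.19. ST14 read 10.47 and 10.95 after knockdown, against 12.21 and 11.92 in controls, and it fell by 1.36 (adjusted p = 3.36e-05), but its other probe set was higher by 0.19. LLGL2 read 8.05 and 8.30 after knockdown, against 8.77 and 8.67 in controls, and it fell by 0.55 (adjusted p = 0.000557), with both probe sets lower. EPCAM, ESRP2, ESRP1 and OVOL1 rose by 0.45, 0.39, 0.31 and 0.30 (adjusted p of 0.00612, 0.00167, 0.0122 and 0.00681). Without H1650 control replicate 1 the EPCAM and ESRP1 calls were lost (adjusted p of 0.0539 and 0.0748).

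Across the lines, 9 genes passed in all 3, 19 in 2, 11 in 1 and 4 in none (20.9%, 44.2%, 25.6% and 9.3%). Over all genes these shares were 12.8%, 24.5%, 32.4% and 30.3%. The genes that passed in none were DSG3, PKP1, DLG1 and GRHL2. AFDN, CLDN1, ESRP1, NECTIN4 and OCLN were higher in all 3 lines, and none of the 43 was lower in all 3. In H1650 MARK2 itself did not pass (limma adjusted p = 0.156) and RNA integrity differed between the groups. Of the 3 NECTIN4 probe sets there, only 1, the one used, was above 0. Of all genes 5.42% were higher and 2.23% lower in all 3. Of the 12 genes higher in both H1993 and H1693, 5 were higher, 4 lower and 3 not called in H1650 (41.7%, 33.3% and 25%). Those lower there were CLDN4, EVPL, LLGL2 and ST14, and those not called were CDH1, PPL and GRHL1. For CDH1, PPL and GRHL1 only the probe set used was above 0 in H1650, and the lowest changed by -0.43, -4.52 and -1.22. Of all 1358 genes higher in both lines, 64.7% were higher, 14.4% lower and 21% not called in H1650. Averaging all probe sets of a gene ended the H1993 rises of MARVELD2, LLGL1 and OVOL1 and the H1693 rises of CTNNA1, AFDN, ESRP1 and GRHL1. It also ended the AFDN and ESRP1 rises in H1650, and turned the AFDN change in H1993 to -0.0216 and the NECTIN4 change in H1650 to -0.0504. Centring each array on its median ended the H1993 rises of CLDN4, AFDN, DSG2, EVPL and ESRP2, with adjusted p between 0.0511 and 0.107, and the differences of JUP and DSG2. The H1993 rises of CGN, NECTIN4, NECTIN2, CDH1, CDH3, PPL, DSC2, LLGL2 and ST14 were among those that passed under every alternative run. So were the H1693 rises of CLDN3, CLDN4, CLDN7, CLDN1, NECTIN4, CDH1 and PPL. With probe sets averaged, LLGL2 changed by 0.35 in H1993 and 0.28 in H1693, ST14 by 0.50 in H1993 and NECTIN1 by -0.29 in H1693, and in H1650 CLDN4, PKP2, PKP3, ST14 and NECTIN1 changed by -0.94, -0.35, -0.59, -0.59 and -0.31.

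Of 83 other genes of the same pathways, 70 were tested. In H1993 20 rose and 2 fell (28.6% and 2.86%, median change 0.09), in H1693 20 rose and 5 fell (28.6% and 7.14%, median 0.04) and in H1650 21 rose and 12 fell (30% and 17.1%, median 0.18). Over all genes 18.9% rose and 14.5% fell in H1993, 17.1% and 15.9% in H1693, and 36.7% and 16.7% in H1650. The share that rose in H1650 was thus below that of all genes, and the share that fell was close to it. Of other tight junction genes, CGNL1, a cingulin relative, LSR, the angulin of tricellular junctions, and CLDN23 had the largest changes in H1993, rises of 1.01, 0.89 and 0.77 (adjusted p of 4.02e-05, 3.00e-05 and 0.000221). In H1693 they were ILDR1, another angulin, CGNL1 and CLDN10, at 0.97, 0.69 and -0.45 (adjusted p of 0.000779, 0.000447 and 0.028). In H1650 they were CLDN23, CLDN11 and TJAP1, at 1.14, 0.67 and -0.63.

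Of other adherens junction genes, PLEKHA7, which ties the junction to microtubule minus ends, rose by 1.40 in H1693 (adjusted p = 4.20e-06), and CDH11, a mesenchymal cadherin, read 5.61 and 5.37 in H1693 knockdown arrays, against 4.23 and 4.17 in H1693 controls, the controls lying below the filtering signal of 5, and was called higher (adjusted p = 0.000144). KIFC3, a minus-end motor of the same junctional system, rose by 0.55 in H1693 and fell by 0.45 on the log2 scale in H1993 (adjusted p of 0.000277 and 0.000838), and NECTIN3 rose by 0.51 in H1993 (adjusted p = 0.00217). In H1650 CDH11, NECTIN3 and VEZT rose by 1.61, 0.73 and 0.65. The H1650 controls of CDH11 read 4.81 and 5.21, near the filtering signal of 5. PERP, a desmosomal membrane protein, rose by 0.26 in H1993 and 0.49 in H1693 and fell by 1.14 in H1650 (adjusted p of 0.0367, 0.0015 and 3.76e-06), where PKP4 fell by 0.30. Among other polarity genes LIN7B, ERBIN and DLG5 changed by 0.55, -0.43 and 0.38 in H1993, LRRC1, CASK and VANGL1 by 0.61, 0.36 and -0.29 in H1693, and LRRC1, LIN7C and DLG5 by 0.68, 0.67 and 0.42 in H1650, all past the threshold.

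Other epithelial regulators and surface genes included partners of ST14. PRSS8, prostasin, a protease that acts in one pathway with matriptase, and SPINT1, the membrane inhibitor of matriptase, rose by 1.38 and 1.005 in H1993 (adjusted p of 1.52e-05 and 0.000154), followed by the ETS factor EHF at 0.93 (adjusted p = 0.0149). In H1693 the largest changes were those of TMC4, SPINT1 and S100A14, at 1.02, 0.79 and -0.71 (adjusted p of 1.01e-05, 0.000713 and 0.000389). S100A14 lay below 5 in the H1693 knockdown arrays (4.55 on average). In H1650 SPINT1, KLF5 and AP1M2 fell by 2.35, 1.44 and 1.01 on the log2 scale. Of 6 repressors of epithelial genes, 5 were tested. In H1993 ZEB1 and SNAI2 fell by 0.35 and 0.34 (adjusted p of 0.0227 and 0.0159), while SNAI1 changed by 0.36 and did not pass (adjusted p = 0.0934). In H1693 TWIST1 rose by 0.60 and SNAI1 fell by 0.47 (adjusted p of 0.0316 and 0.0347). In H1650 ZEB1 and TWIST1 rose by 0.87 and 0.71 and SNAI1 fell by 0.70.

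All 5 epithelial markers were above the filtering signal of 5 on the 12 arrays, and the summed level of KRT7, KRT8, KRT18, KRT19 and MUC1 lay between 16.66 and 16.68 in H1993 knockdown arrays and 16.60 and 16.65 in H1993 controls, and between 16.00 and 16.02 in H1693 knockdown arrays and 15.99 and 16.01 in H1693 controls (log2 of the summed signal). The sum hides single calls: KRT19 rose by 0.27 in H1993 (adjusted p = 0.00748), and in H1693 MUC1 rose by 0.47 and KRT7 fell by 0.33 (adjusted p of 0.00491 and 0.0062). KRT8 and KRT18 passed in neither line. In H1650 the sum was 15.63 to 15.70 in knockdown and 16.14 to 16.17 in control arrays, and all 5 markers fell there: KRT8 fell by 4.47 on the log2 scale. Of 8 mesenchymal markers, 7 were tested, and in H1993 3 rose and 1 fell. COL1A1 and FN1 rose there, by 0.59 and 0.35, and VIM fell by 0.47. LUM read 5.81 and 5.67 in H1993 knockdown arrays, against 3.45 and 4.03 in H1993 controls, the controls lying below the signal of 5, and was called higher (adjusted p = 1.36e-05). In H1693 3 rose (LUM, COL1A1 and COL3A1, by 0.95, 0.67 and 0.62) and none fell. Their summed level was 13.10 to 13.18 in H1993 knockdown and 12.79 to 12.85 in control arrays, and 13.88 to 13.92 in H1693 knockdown and 13.53 to 13.55 in control arrays. In H1650 it was 14.87 to 14.90 in knockdown and 14.70 to 14.80 in control arrays. The mesenchymal sum was thus higher on the knockdown arrays of all 3 lines, and its part in the changes of the junction genes was not tested. FN1 averaged 12.96 in H1993 knockdown and 12.61 in control arrays and made up most of the sum there. In H1650, where MARK2 did not pass and RNA integrity differed, 1 of the 7 tested was called higher. It was LUM, at 3.98 after knockdown and 3.33 in controls on average, below the signal of 5. The leukocyte marker PTPRC averaged 4.38 in H1993 knockdown and 4.03 in control arrays, below the signal of 5 used for filtering, as on the arrays of the other lines, and no endothelial marker passed in any line. Of the other leukocyte markers, LYZ read 6.35 and 6.003 in H1993 knockdown arrays, against 4.43 and 4.53 in H1993 controls, the controls again below 5, and was called higher (adjusted p = 1.66e-05), where the leukocyte sum was 11.75 to 11.78 in knockdown and 11.62 to 11.76 in control arrays. CD68 fell by 0.30 in H1693 and rose by 0.38 in H1650 (adjusted p of 0.0322 and 0.0071), and CD14 fell by 0.55 in H1650 (adjusted p = 0.025). The leukocyte sum was 8.15 to 8.25 in H1693 knockdown and 8.35 to 8.39 in H1693 control arrays, and 10.51 to 10.58 in H1650 knockdown and 10.12 to 10.35 in H1650 control arrays.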

How the data were processed

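Biotinylated cRNA from total RNA of the 3 lines was hybridised to 12 PrimeView arrays, 2 for each of 6 groups. Per the submitters' processing notes, the authors made the deposited log2 values with RMA in Affymetrix Expression Console, of an unstated version. RMA corrects for background, brings all arrays to the same distribution and combines the probes of each set into 1 log2 signal, so signal near background understates a change. The number of arrays limits the precision.

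Of 49395 probe sets, 44994 had 1 gene symbol, 1832 several and 2569 none in the platform annotation; 44988 single-symbol probe sets that are no controls were used, and 44961 of them matched a gene ID in RefSeq (GRCh38.p14). Each of 18132 genes was represented by its brightest probe set on average over the 12 arrays. The 16205 genes with at least 2 arrays at a log2 signal of 5 were fitted with limma 3.58.1 in R 4.3.3, with a mean for each group and eBayes (6 residual degrees of freedom, prior 3.52), two-sided tests and Benjamini-Hochberg adjustment over all of them at 0.05. The code was tested on simulated data. Tables and figures used Python 3.11.15, pandas 2.3.3 and matplotlib 3.10.9.

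The members and all gene lists were chosen with earlier results of these data known. Values in every array are given for the 26 members past the threshold in a line with a change of at least 0.5 there, and for other genes of the pathways up to 3 per list and line with the largest change past the threshold. Alternatives were probe sets averaged per gene, quantile normalization, median centring, another floor or none, eBayes with trend and robust prior, each line fitted alone, a fit without H1650, the replicate number as a block, and leaving out each array.

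Deviations of knockdown and control arrays with the same replicate number from their group means correlated at -0.11 in H1650, -0.18 in H1693 and 0.29 in H1993, and no label ties the numbers to a shared batch, so the numbers were not used as pairs. Promoter sequences come from RefSeq, build GRCh38.p14, 250 bases before each start.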

Additional observations from a re-analysis of the deposited data

Results flagged for a closer look

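The test of the difference between the change in H1993 and the change in H1693 passed for 15 of the 43 genes. The difference, H1993 minus H1693, was 1.96 for CGN, 1.27 for NECTIN4, 1.23 for NECTIN2, 1.15 for DSC2, 0.99 for CDH3, 0.90 for TJP3 and 0.80 for PPL (log2). It was 0.55 for PKP2, 0.53 for OVOL1, 0.37 for JUP, 0.36 for DSG2 and 0.36 for LLGL1. With probe sets averaged, the differences of NECTIN4 (0.30), PPL (0.38), OVOL1 (0.21), DSG2 (0.35) and LLGL1 (0.17) did not pass. The claudins lay on the other side, with -1.14 for CLDN3, -0.67 for CLDN4 and -0.43 for CLDN7. Of all genes tested 22.1% passed the same test.

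For 16 genes both knockdown arrays of H1650 moved away from both controls in the direction opposite to both arrays of H1993, of H1693 or of each of them; these differences were not tested. The H1650 changes were -2.60 for ELF3, -2.41 for EVPL, -2.13 for JUP, -1.49 for CLDN4, -1.46 for MARVELD3, -1.36 for ST14, -1.28 for PKP2 and -1.11 for PKP3. They were smaller for LLGL2 (-0.55), CGN (-0.34), CLDN7 (-0.36), GRHL2 (-0.31) and TJP3 (-0.17). In DSC2 (1.23), DSG2 (0.57) and OVOL1 (0.30) the H1650 arrays were higher and the H1693 arrays lower. Over all genes 34.3% met the same criterion, against 37.2% of the 43. The ACTB difference between 3′ and 5′ probes was 7.06 ± 0.13 in knockdown and 2.90 ± 0.54 in control arrays of H1650, 0.37 ± 0.05 and 0.55 ± 0.03 in those of H1693, and 0.40 ± 0.02 and 0.32 ± 0.05 in those of H1993 (SD, n = 2 each); its part in these changes was not tested.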

How the results depend on the processing

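Of the calls for single genes, 18 of 28 in H1993, 11 of 19 in H1693, 19 of 29 in H1650 and 10 of 15 differences between H1993 and H1693 held without any one array. With each array left out in turn, 19 to 28 genes were higher and 0 to 1 lower in H1993, 11 to 18 higher and 2 to 4 lower in H1693, 12 to 16 higher and 10 to 13 lower in H1650, and 9 to 12 differences were higher and 1 to 3 lower. Averaging the probe sets of a gene reversed 6 calls: in H1650 CTNNA1 (-0.0214), CTNNB1 (-0.63), NECTIN2 (-0.10), NECTIN4 (-0.0504) and DSG2 (-1.12), and in H1993 AFDN (-0.0216). It gave 10 higher and 22 lower genes in H1650 and 5 lower in H1693, and ended the calls of the differences of NECTIN4 (0.30, adjusted p = 0.134) and PPL (0.38, adjusted p = 0.125). Quantile normalization gave 11 higher genes in H1650. The cause was not tested. The replicate numbers do not pair the arrays; with the replicate block 25 genes were higher and 1 lower in H1993, 15 and 2 in H1693, 16 and 12 in H1650, and 11 and 2 of the differences. No alternative changed the direction of a call in H1693. Changes near the floor of 5 are limited by background.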
